A study of Mus musculus with 13 samples.

Results

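The regions described here are 1450 stretches of 5 to 10 kb of mouse chromatin that carried the histone mark H3K27me3 in embryonic stem cells with and without the nuclear proteins SAFB and SAFB2. They were taken from the study's merged set of 57909 H3K27me3 regions, of which they make up 2.50%. A region was kept when it was at least 5 kb and under 10 kb long, when it lay on an autosome other than chromosomes 6 and 11, and when the authors' list named it as shared by both genotypes. The sources used here do not say how the authors called regions or defined shared. The 1450 regions are 9.22% of the 15732 shared regions on these chromosomes. The other shared regions there include 411 of 10 kb or more and 9141 of 1 to 5 kb.

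The study profiled male mouse embryonic stem cells of mixed CAST and B6 origin, whose Rosa26 locus carries a site for recombinase-mediated cassette exchange. All cells had received doxycycline for 3 days and were fixed in 0.6% formaldehyde. H3K27me3 was measured by chromatin immunoprecipitation and sequencing in 5 wild-type (WT) libraries and in 4 libraries of cells lacking both SAFB and SAFB2 (double knockout, DKO), and total histone H3 in 2 libraries of each genotype. DKO replicate 1 came from clone 4, and the other DKO libraries, those for H3 included, came from clone 13, so the genotype rests on 2 clones. WT replicate 4 and DKO replicate 3 carry the word Old in their library names, and WT replicate 5 and DKO replicate 4 carry the word New. The library names of WT replicates 2 and 3 have stems that differ from the one WT replicates 1, 4 and 5 share. No label says that the libraries came from separate cultures, so the p-values cover the spread among these libraries, which may be technical. A lower level in every cell and a lower share of cells or alleles with the mark cannot be told apart.

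H3K27me3 is placed by Polycomb repressive complex 2 (PRC2), whose catalytic subunit is EZH2, with EED and SUZ12 as partners. In embryonic stem cells it covers CpG-rich promoters of developmental genes that these cells hold silent, and many of these promoters also carry the activating mark H3K4me3. Broad domains lie over clusters of lineage regulators such as the Hox genes, and shorter regions lie over the start sites of other silent genes. SAFB and SAFB2 are RNA- and DNA-binding proteins of the nuclear scaffold.

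The promoters inside these regions were rich in CpG dinucleotides, the feature that PRC2 accessory proteins are known to recognise at unmethylated CpG islands. RefSeq promoter windows (build GRCm38.p6), which run from 250 bases before a gene's start to 50 bases after it, lay wholly inside 814 of the 1450 regions, with 1145 windows in all. The median window held 21 CpG dinucleotides and 64.3% G+C, and 66.4% of the windows held 15 or more CpG. Over all 27242 windows on the same chromosomes the median was 7 CpG, and 34.9% held 15 or more. The median was 16 CpG in the regions of 10 kb or more and 14 in those of 1 to 5 kb. Among the regions that later passed the test, the median was 22 CpG for those lower in DKO (87 windows) and 21 for those higher in DKO (8 windows), beside 21 for the rest. No test was made of these medians. A CpG reads the same on both strands and was counted once.

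The promoters of 8 genes are shown because their regions passed the test described later, 6 of them lower in DKO and 2 higher. Each runs 5′ to 3′ on the gene's own strand, from RefSeq (GRCm38.p6), with every CpG in capitals. The windows lie at chr7:49636786-49637085 (minus strand, Dbx1), chr19:24900967-24901266 (minus, Foxd4), chr1:119422199-119422498 (minus, Inhbb), chr3:45378148-45378447 (plus, Pcdh10), chr1:74951623-74951922 (minus, Ihh), chr15:98898491-98898790 (minus, Dhh), chr2:126552774-126553073 (plus, Slc27a2) and chr7:127614818-127615117 (minus, Zfp629, the window with the most CpG of 3 for this gene).
Dbx1, lower in DKO: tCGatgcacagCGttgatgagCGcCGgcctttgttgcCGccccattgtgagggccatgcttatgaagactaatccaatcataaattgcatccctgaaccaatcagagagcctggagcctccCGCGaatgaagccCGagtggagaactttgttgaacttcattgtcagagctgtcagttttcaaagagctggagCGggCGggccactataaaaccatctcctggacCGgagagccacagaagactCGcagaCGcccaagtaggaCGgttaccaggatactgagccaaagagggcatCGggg
Foxd4, lower in DKO: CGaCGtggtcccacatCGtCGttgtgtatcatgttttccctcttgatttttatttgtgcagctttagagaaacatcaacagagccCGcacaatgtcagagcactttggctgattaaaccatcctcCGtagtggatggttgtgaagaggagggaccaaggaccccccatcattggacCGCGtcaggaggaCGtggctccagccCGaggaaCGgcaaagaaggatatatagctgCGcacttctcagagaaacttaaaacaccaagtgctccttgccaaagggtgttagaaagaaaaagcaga
Inhbb, lower in DKO: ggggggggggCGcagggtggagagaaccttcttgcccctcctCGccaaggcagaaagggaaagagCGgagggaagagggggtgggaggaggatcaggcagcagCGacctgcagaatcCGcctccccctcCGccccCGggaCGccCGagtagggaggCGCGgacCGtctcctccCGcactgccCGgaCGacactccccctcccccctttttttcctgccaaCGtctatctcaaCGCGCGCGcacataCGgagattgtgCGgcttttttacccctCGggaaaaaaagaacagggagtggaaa
Pcdh10, lower in DKO: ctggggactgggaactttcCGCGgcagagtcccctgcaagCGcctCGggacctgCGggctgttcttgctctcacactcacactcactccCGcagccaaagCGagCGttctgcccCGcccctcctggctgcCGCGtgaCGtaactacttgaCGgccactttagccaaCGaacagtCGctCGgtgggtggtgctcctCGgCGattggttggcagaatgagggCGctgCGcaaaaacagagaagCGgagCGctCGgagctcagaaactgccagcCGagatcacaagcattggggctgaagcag
Ihh, lower in DKO: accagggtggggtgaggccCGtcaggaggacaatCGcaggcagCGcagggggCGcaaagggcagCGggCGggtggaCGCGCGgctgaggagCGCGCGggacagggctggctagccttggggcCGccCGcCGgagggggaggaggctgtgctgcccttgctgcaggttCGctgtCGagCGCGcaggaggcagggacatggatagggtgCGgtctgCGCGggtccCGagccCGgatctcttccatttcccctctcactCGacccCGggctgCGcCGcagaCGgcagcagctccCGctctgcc
Dhh, lower in DKO: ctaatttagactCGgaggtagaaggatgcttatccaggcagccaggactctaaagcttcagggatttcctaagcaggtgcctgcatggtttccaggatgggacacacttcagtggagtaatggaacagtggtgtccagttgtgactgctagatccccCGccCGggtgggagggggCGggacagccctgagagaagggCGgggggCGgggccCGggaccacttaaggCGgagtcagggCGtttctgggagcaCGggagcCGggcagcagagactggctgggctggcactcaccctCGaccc
Slc27a2, higher in DKO: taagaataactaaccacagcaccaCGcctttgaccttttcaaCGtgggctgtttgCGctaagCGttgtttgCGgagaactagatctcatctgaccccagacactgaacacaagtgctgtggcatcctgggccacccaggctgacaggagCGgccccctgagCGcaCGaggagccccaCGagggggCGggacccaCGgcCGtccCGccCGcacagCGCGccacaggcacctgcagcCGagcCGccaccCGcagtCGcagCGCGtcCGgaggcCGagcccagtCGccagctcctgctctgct
Zfp629, higher in DKO: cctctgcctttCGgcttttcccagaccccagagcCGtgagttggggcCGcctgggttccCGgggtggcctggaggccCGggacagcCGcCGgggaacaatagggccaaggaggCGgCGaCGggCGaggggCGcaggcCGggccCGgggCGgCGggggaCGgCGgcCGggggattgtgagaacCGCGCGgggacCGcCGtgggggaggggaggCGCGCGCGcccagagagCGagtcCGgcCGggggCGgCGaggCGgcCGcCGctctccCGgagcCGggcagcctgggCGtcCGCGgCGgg
The Dbx1 window holds 15 CpG, Foxd4 12, Inhbb 23, Pcdh10 24, Ihh 30 and Dhh 12, while the windows of the genes higher in DKO hold 25 (Slc27a2) and 42 (Zfp629). The counts of the groups overlap. The Zfp629 windows not shown hold 17 and 8. The calls at Ihh and Slc27a2 were lost in some fits that left out a library, as described later.

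Several regions hold microRNA genes. At some of them, such as those of Btg4 and Cdc20b, a promoter row of a protein-coding gene overlaps the region too. In all, 24 microRNA genes of the RefSeq table with 39 mature sequences were counted in 20 of the regions, and none of these 20 regions passed the test of DKO against WT described later, which 9.52% of the 1450 passed. The region of Mir124a-1, described later, did pass and is not among the 20, since its microRNAs were not matched to that table. These sequences are shown because they give the neural and epithelial microRNAs of these regions and a seed that 2 of the regions share. The seed, bases 2 to 8 of the mature form, is in capitals.
mmu-miR-34b-5p: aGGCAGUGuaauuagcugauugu
mmu-miR-449a-5p: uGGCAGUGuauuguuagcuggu
mmu-miR-449c-5p: aGGCAGUGcauugcuagcugg
mmu-miR-137-3p: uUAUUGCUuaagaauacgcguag
mmu-miR-219a-5p: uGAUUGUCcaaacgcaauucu
mmu-miR-128-3p: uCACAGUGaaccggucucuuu
mmu-miR-203-3p: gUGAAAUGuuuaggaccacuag
miR-34b-5p, from the Btg4 region on chromosome 9, shared the seed GGCAGUG with miR-449a-5p and miR-449c-5p, both from the Cdc20b region on chromosome 13. These families are known from multiciliated epithelia. The region of Mir34b and Mir34c measured 12.03 ± 2.01 CPM per kb (SD, n = 5; counts scaled to the library's total over all regions with TMM factors, the trimmed mean of M values, and divided by the length) in WT and 12.6 ± 0.663 (n = 4) in DKO. That of Mir449a and Mir449c measured 19.4 ± 1.78 in WT and 16.4 ± 0.474 in DKO, a log2 change of -0.24 ± 0.08 (SE) that missed the threshold (edgeR adjusted p = 0.0578). The region of Mir137, a neural microRNA, measured 18.9 ± 0.616 and 16.5 ± 1.53, and that of Mir219a-2, known for oligodendrocyte differentiation, 13.0 ± 2.25 and 10.9 ± 1.43. Neither difference passed the test (adjusted p = 0.164 and 0.180). The regions of Mir128-2 (12.8 ± 0.982 and 13.1 ± 1.68) and Mir203, a microRNA of epidermis (16.4 ± 2.09 and 17.1 ± 1.40), overlapped between genotypes.

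In level, the regions stood between the broad domains and the short regions. The median H3K27me3 level, taken as the mean of the WT and DKO means, was 17.2 CPM per kb (quartiles 14.2 and 21.2), against 23.8 in regions of 10 kb or more and 9.81 in regions of 1 to 5 kb. Total H3, the measure of nucleosomes recovered without regard to the mark, had a median of 12.3 CPM per kb (quartiles 10.97 and 13.6). The median log2 ratio of H3K27me3 to total H3 was 0.52 in WT (SD over libraries 0.051, n = 5) and 0.51 in DKO (SD 0.033, n = 4), and the mark exceeded H3 in 1203 of the 1450 regions in WT and 1265 in DKO. Because the regions were called on the mark, this excess is a description. It depends on the scaling: with TMM factors set over all 13 libraries together the medians became 1.11 and 1.02. Longer members stood higher, from a median of 16.02 CPM per kb at 5 to 6 kb to 19.7 at 9 to 10 kb.

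Most of the regions overlapped a promoter row (3001 bp) of the authors' table. An overlap of 1 base or more was counted, here and for the gene lists, so a region need not cover the gene's start. Of the 1450 regions 1196 had such an overlap, with a median of 17.8 CPM per kb, and 1125 held at least 50% of a row. The 254 without any overlap had a median of 14.04, and 135 of them lay in the body of a protein-coding gene. In all, 1609 genes had a promoter row at a region, 3.58% of the 44927 genes on these chromosomes, beside 1.62% at regions of 10 kb or more and 10.8% at regions of 1 to 5 kb. Of the 1405 genes that matched the RefSeq gene table, 1180 were protein coding and 160 made long noncoding RNAs. Their median distance from a region of 10 kb or more was 1183 kb, and 29 of the 1450 regions lay within 1 kb of one.

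Gene lists were spread differently over these regions and the broad domains, as shares with no test. Of 18 Hox genes on these chromosomes, 17 (94.4%) had a promoter in a region of 10 kb or more and 1, Hoxd1, in a region of 5 to 10 kb. For the other homeobox genes the shares were 64.0% and 16.5%. Several other lists had a larger share at the 5 to 10 kb regions than at the broad domains. Of potassium channel genes 38.5% had a promoter at the 5 to 10 kb regions and 3.85% at the broad domains. The corresponding shares were 26.5% and 2.56% for neurotransmitter receptors, 38.03% and 5.63% for axon guidance genes, 29.6% and 5.56% for the BMP and TGF-beta pathway, 34.4% and 11.1% for FGF and receptor tyrosine kinase genes and 41.7% and 8.33% for the Hedgehog pathway. The bHLH (37.1% and 25.8%) and Sox genes (35.7% and 28.6%) had this order too. Cadherins and protocadherins (25.5% and 39.8%) and the Notch pathway (14.3% and 21.4%) had the order of the homeobox genes. Regions of 1 to 5 kb held a still larger share of axon guidance genes (47.9%) and neurotransmitter receptors (44.4%). The same held for the BMP and TGF-beta pathway (42.6%) and FGF and receptor tyrosine kinase genes (38.9%). Their shares of potassium channel (37.2%), Hedgehog (25%), bHLH (32.3%) and Sox genes (28.6%) were below those at the 5 to 10 kb regions. Among 22 genes of Polycomb proteins, Bmi1 (whose region also covers Commd3) and Pcgf5, both encoding PRC1 subunits, had promoters at these regions. None of 15 housekeeping genes did.

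Some facts of the whole series bear on these values. Each H3K27me3 library held 1818647 to 3134799 counts over all regions, of which 17.6% to 19.8% fell in the 1450 regions, and each H3 library held 525847 to 736566, of which 12.2% to 12.5% did. Every region had at least 927 H3K27me3 counts over the 9 libraries and at least 66 in each, but as few as 11 in an H3 library, so H3 is the less precise measure. WT replicate 1 stood apart, with a median of 19.4 CPM per kb over the 1450 regions beside 17.1 to 17.6 in the other WT libraries and 16.2 to 17.6 in DKO. Of 6 pluripotency genes, Nanog was at 0 counts in its highest promoter row, Zfp42, Pou5f1 and Sox2 were at 6.997 CPM or less, and Esrrb (32.8 CPM in WT and 35.0 in DKO) and Tfcp2l1 (30.6 and 34.7) carried the mark. Of 6 fibroblast genes, Col1a1 (91.3 and 111) and Thy1 (53.5 and 46.5) carried the mark. Col1a2 (8.81 and 11.7) and Lum (6.82 and 7.04) were low, and Col3a1 (0.689 and 0.746) and Postn were near 0. The mark reads silent genes, so these promoter values are no measure of cell types.

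Total H3 stood out on 1 stretch of the genome, the distal part of chromosome 8, while the other chromosomes had medians of 11.3 to 12.9 CPM per kb over the 4 libraries. The 96 regions from 40 Mb to the end of that chromosome had a median H3 of 18.2 and 18.1 CPM per kb in the WT libraries and 17.7 and 17.7 in the DKO libraries. Regions of the other 16 chromosomes had medians of 12.2, 12.1, 11.9 and 12.2, so the distal part of chromosome 8 stood 1.497, 1.487, 1.487 and 1.453 times higher. The 23 regions before 40 Mb had 0.920 to 0.958 times the median of the other chromosomes. All 4 H3 libraries showed the step, WT and DKO alike. The boundary was placed after these values were seen.

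**Figure D1:**
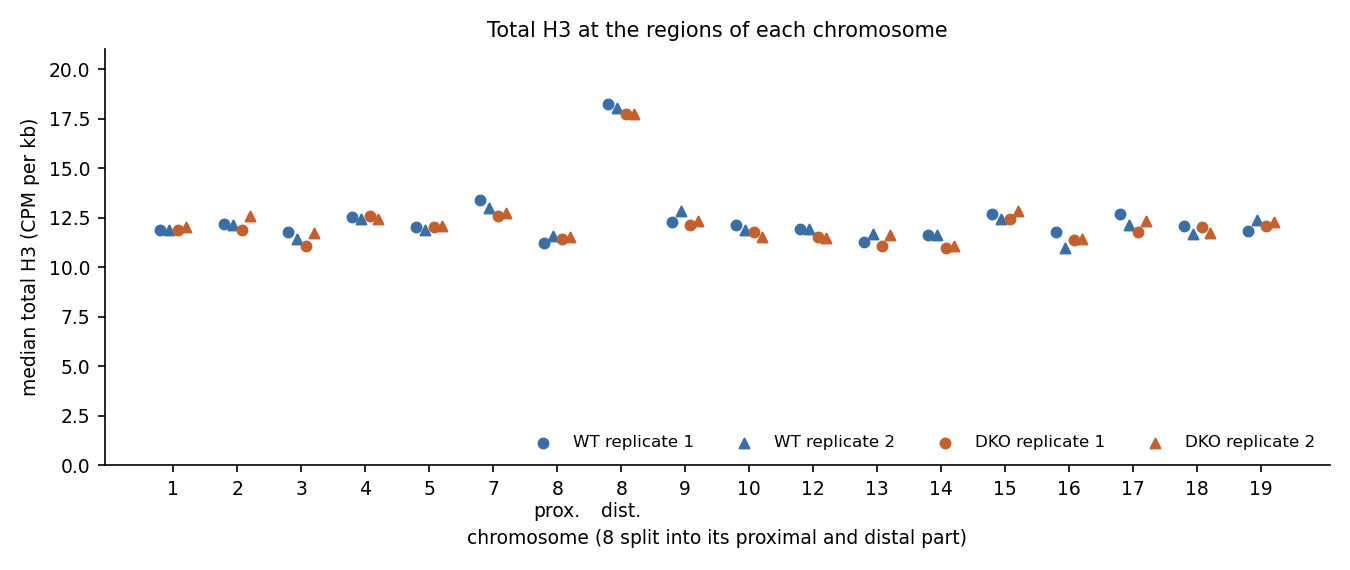
Median total H3 (CPM per kb, vertical axis) over the 5 to 10 kb regions of each chromosome, with chromosome 8 split into its proximal (23 regions) and distal part (96 regions). Each point is an H3 library (blue WT, orange DKO). The distal part of chromosome 8 lies at 17.7 to 18.2 in all 4 libraries, above every other chromosome.

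The same step appeared in the other length classes, at 1.49 to 1.57 times in regions of 10 kb or more and 1.52 to 1.55 times in those of 1 to 5 kb. The mark itself was 1.21 times the level of the other chromosomes on distal chromosome 8 in WT and 1.21 times in DKO. Distal chromosome 8 holds 6.62% of the regions but 72 of the 100 with the highest H3, 23 of the 100 with the highest H3K27me3 and 3 of the 100 with the highest ratio of the mark to H3. No library of input DNA was analysed here, so more DNA and more H3 on it cannot be told apart.

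The highest level of all was at CT010467.1 and CT010467.2 on chromosome 17 (482 CPM per kb), a multi-copy ribosomal RNA sequence described separately. Of the next 7, 4 lay on distal chromosome 8. Lyl1, a basic helix-loop-helix (bHLH) factor of blood and endothelium, stood at 72.6 CPM per kb, and Comp, a cartilage matrix protein, at 50.4. Cbln1, an organiser of cerebellar synapses, stood at 45.1 and Cbfa2t3, a corepressor of blood cells, at 43.7. Elsewhere Lrrc26 with Tmem210 reached 44.3, Grwd1 40.9 and Tesc, a calcium-binding protein related to calcineurin B, 40.1. Levels of neighbours in this order, such as Cbln1 and Lrrc26, differed by less than the SD over WT libraries (2.07 and 1.85).

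Comp was a high region that did not pass the test of DKO against WT. It measured 57.6, 50.9, 49.6, 46.4 and 51.6 CPM per kb in the WT libraries and 49.7, 51.9, 46.2 and 50.3 in the DKO libraries, with a log2 difference of -0.05 ± 0.06 (SE; edgeR adjusted p = 0.701). The groups overlapped. At the other end, a region in the body of Rfx4 stood at 8.18 CPM per kb, another in the body of Tfap2b at 8.12 and that in the body of Ntsr1, the neurotensin receptor, at 6.82. For Tfap2b, a neural crest factor, the region lies 0.339 kb from a broad domain. These low members carried less mark than H3 (12.1 and 14.1 CPM per kb of H3 at Rfx4 and Ntsr1).

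The comparison of DKO with WT asked where loss of SAFB and SAFB2 changed the mark. Of the 1450 regions, 117 fell in DKO and 21 rose (edgeR quasi-likelihood test over 40418 regions, Benjamini-Hochberg adjusted p under 0.05). That is 8.07% lower and 1.45% higher, against a background of 1.88% lower and 2.16% higher over all tested regions. At an unadjusted p under 0.05 there were 423 of the 1450, beside 266 of the 411 regions of 10 kb or more and 1104 of the 9141 of 1 to 5 kb. The changes were small: the median log2 change was -0.30 among the 117 and 0.41 among the 21. Over all 1450 it was -0.08, beside -0.02 over all tested regions, -0.19 over the 411 regions of 10 kb or more, where 187 fell and 3 rose, and 0.03 over those of 1 to 5 kb, where 64 fell and 100 rose. Either direction together made 4.03% of all tested regions. DESeq2 gave 91 lower and 13 higher, against a background of 3.67% for either direction. In 172 regions (11.9%) every DKO library lay below every WT library, and in 25 (1.72%) above, against backgrounds of 3.4% and 3.36%.

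How many regions fell and rose depends on the scaling between libraries. Scaled by library totals instead of TMM factors, 66 fell and 49 rose, so that 42.6% of the calls were higher instead of 15.2% (backgrounds 1.14% lower and 3.51% higher). The median over all tested regions then moved from -0.02 to 0.05. With TMM factors set without chromosomes 6 and 11, 184 fell and 14 rose (backgrounds 2.2% and 1.3%), and the 1 to 5 kb median became -0.01. The regions' median stayed below that of all tested regions under each of the 3 scalings (-0.01 against 0.05, and -0.12 against -0.05, in the 2 alternatives). Without DKO replicate 3 the counts were 37 lower and 13 higher, without DKO replicate 2 they were 58 and 9, without DKO replicate 4 they were 77 and 23, and without WT replicate 1 they were 121 and 41. Without both WT replicates 2 and 3, the WT libraries with name stems of their own, 70 fell and 13 rose. All 117 and all 21 kept their direction in the libraries with Old or New in their names and in those without. These regions were called on both sets of libraries at once, so a kept direction was largely set by the choice. Fewer passed in each set alone. With Old or New 40 fell and 11 rose (backgrounds 0.606% and 0.865%), and without them 7 fell and 2 rose (backgrounds 0.31% and 0.0703%). Leaving out each library in turn, 30 of the 117 and 4 of the 21 passed in all 9 fits.

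The median change was ordered by level. In the 363 regions with the lowest level the median log2 change was 0.01, with 14 rising and 6 falling. It was -0.06 in the next 362, -0.10 in the 362 after them and -0.15 in the 363 with the highest level, where 83 fell and 1 rose. Under library totals the 4 medians were 0.08, 0.01, -0.03 and -0.08, so the order held while the sign at the lower levels did not. A region of low level has fewer counts and needs a larger change to pass. The 117 that fell had a median level of 24.9 CPM per kb and the 21 that rose 13.1.

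**Figure D2:**
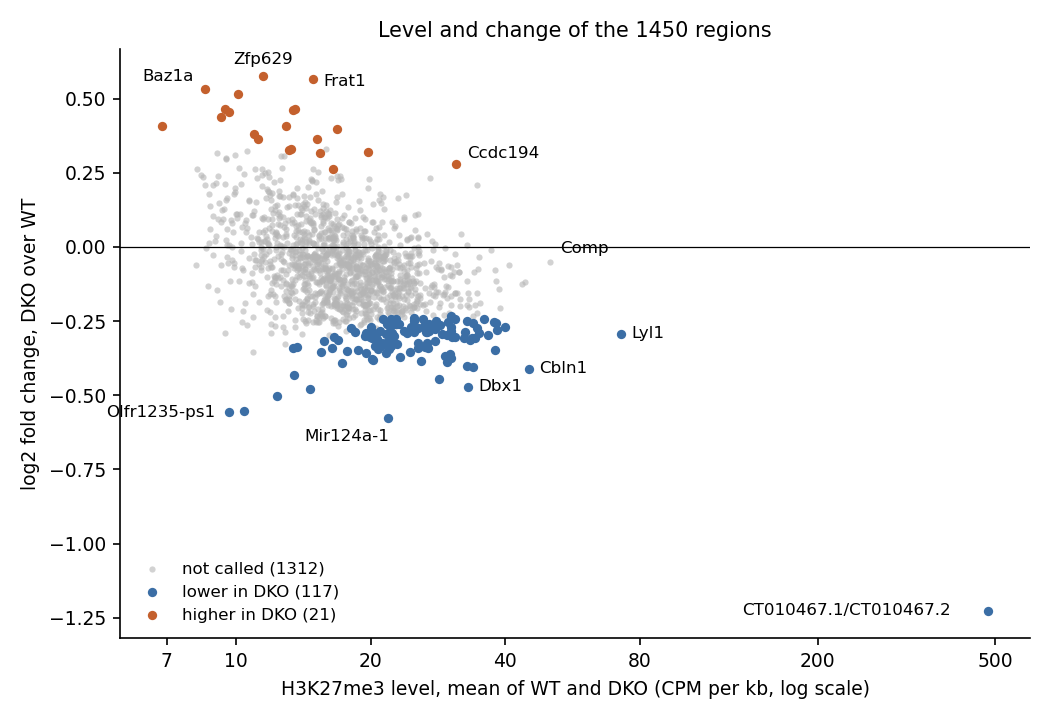
H3K27me3 level (CPM per kb, logarithmic horizontal axis) against the log2 change of DKO over WT for each of the 1450 regions, with 117 lower regions in blue, 21 higher in orange and 1312 that did not pass in grey. Lower regions lie mostly at high levels (median 24.9) and higher ones at low levels (median 13.1).

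Regions at promoters and the others were counted apart, and the ratio of their counts is tested later. Those at promoters also had the higher level, with a median of 17.8 CPM per kb against 14.04. Of the 1196 with a promoter row 108 fell and 14 rose, with a median log2 change of -0.09. Of the 254 without, 9 fell and 7 rose, with a median of -0.02. The share that fell went from 4.64% at 5 to 6 kb to 17.1% at 9 to 10 kb, where levels are also higher. Longer regions also hold more counts, so a smaller change can pass there. The median log2 change moved less, from -0.06 at 5 to 6 kb to -0.11 at 9 to 10 kb.

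Outside the ribosomal region, these were the decreases with the smallest p. Dbx1, a homeobox factor of ventral spinal interneurons (region chr7:49633199-49642001), measured 39.8, 39.5, 37.0, 38.9 and 36.8 CPM per kb in the WT libraries and 28.8, 26.5, 25.2 and 30.4 in the DKO libraries. The lowest WT library stood well above the highest DKO library. The log2 change was -0.47 ± 0.07 (SE; edgeR adjusted p = 6.44e-08). The region of Mir124a-1 and its host transcript (chr14:64585137-64591801), which makes a microRNA abundant in neurons, measured 25.9, 28.5, 26.3, 26.5 and 23.6 in WT and 17.7, 15.9, 15.3 and 21.002 in DKO. Its log2 change was -0.58 ± 0.09 (adjusted p = 6.44e-08). Again no DKO library reached the WT range.

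Foxd4, a forkhead factor of early neural ectoderm (chr19:24896473-24904768), measured 32.9, 34.9, 30.9, 32.2 and 33.3 in WT and 25.5, 23.1, 23.0 and 24.8 in DKO, a log2 change of -0.45 ± 0.07 (adjusted p = 1.85e-06). Cbln1 (chr8:87465884-87472619) fell from 50.7, 53.4, 53.1, 52.2 and 48.3 to 41.1, 36.9, 37.7 and 39.2, a log2 change of -0.41 ± 0.07 (adjusted p = 2.74e-06). Both sets of libraries were tight, with SDs of 1.45 and 1.22 CPM per kb at Foxd4 and 2.07 and 1.86 at Cbln1. Nfia, a factor of glial differentiation (chr4:97773503-97781502), fell from 33.6 ± 0.755 to 25.7 ± 1.38 CPM per kb (log2 change -0.39), and its region lies 13.4 kb from a broad domain.

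Inhbb, the gene of an activin and inhibin beta subunit (chr1:119417151-119424882), measured 35.6, 39.3, 37.0, 38.4 and 36.5 in WT and 32.0, 28.7, 21.9 and 30.8 in DKO. DKO replicate 3 was the lowest, and without it the log2 change was -0.28 instead of -0.40. Pcdh10, a protocadherin of neuronal adhesion (chr3:45376050-45385441), fell from 29.4 ± 2.80 to 22.5 ± 1.59 (log2 change -0.39; adjusted p = 7.98e-05). These 7 regions and the ribosomal one passed in each of the 9 fits that left out a library. Lyl1, the highest region of an ordinary gene, also fell, from 76.9, 80.7, 82.8, 82.4 and 77.0 to 72.1, 65.9, 62.0 and 61.0, a log2 change of -0.29 ± 0.06 (adjusted p = 2.51e-04).

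The regions that rose carried less mark to begin with. Frat1, whose product binds the kinase GSK3 and activates Wnt signalling (chr19:41830033-41836619), measured 9.68, 13.7, 12.1, 13.2 and 11.4 CPM per kb in WT and 17.9, 19.1, 19.1 and 14.7 in DKO. Its log2 change was 0.56 ± 0.10 (edgeR adjusted p = 6.16e-06). Zfp629, a zinc finger gene (chr7:127608386-127616630), measured 9.77, 6.18, 10.4, 9.93 and 9.55 in WT and 11.1, 15.99, 13.8 and 14.3 in DKO, a log2 change of 0.58 ± 0.10 (adjusted p = 6.37e-06). WT replicate 2 was low there. Every DKO library lay above every WT library at both.

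Cd24a, a surface glycoprotein (chr10:43575522-43582849), rose from 16.5, 12.8, 15.6, 15.0 and 12.9 to 18.9, 19.3, 19.3 and 19.1, a log2 change of 0.40 ± 0.09 (adjusted p = 0.00145). The DKO libraries hardly differed among themselves there. The uncharacterised gene 1700024G13Rik rose from 8.30 ± 1.44 to 11.9 ± 0.628 CPM per kb. These 4 were the higher regions that passed in each of the 9 leave-out fits. Baz1a, a subunit of ISWI chromatin remodellers, rose from 7.0002 ± 0.387 to 10.1 ± 0.905, but without DKO replicate 3 the adjusted p was 0.05003. A region in the body of Kdm2b, which encodes a CpG-binding protein of a variant PRC1, rose from 11.3 ± 1.88 to 15.5 ± 1.87 (adjusted p = 0.0632 without DKO replicate 3).

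Slc27a2, an acyl-CoA synthetase of very long fatty acids, rose from 7.99 ± 0.810 to 10.9 ± 0.878 (adjusted p = 0.0547 without DKO replicate 3). A region in the bodies of Dbn1, which encodes drebrin, and Prr7 rose from 11.4 ± 2.00 to 15.7 ± 2.88, with adjusted p = 0.102 without DKO replicate 2 and 0.0526 without WT replicate 5. The other 13 had log2 changes of 0.26 to 0.46, and each lost its call without at least 1 library. Among them were 2 regions of Fat1, a giant cadherin, 1 at its promoter (0.32) and 1 in its body (0.41), and 1 at the promoter of Dbn1 (0.26). The highest of the 21 was at Ccdc194 on distal chromosome 8, with 28.1 ± 3.07 CPM per kb in WT and 34.2 ± 2.70 in DKO.

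**Figure D3:**
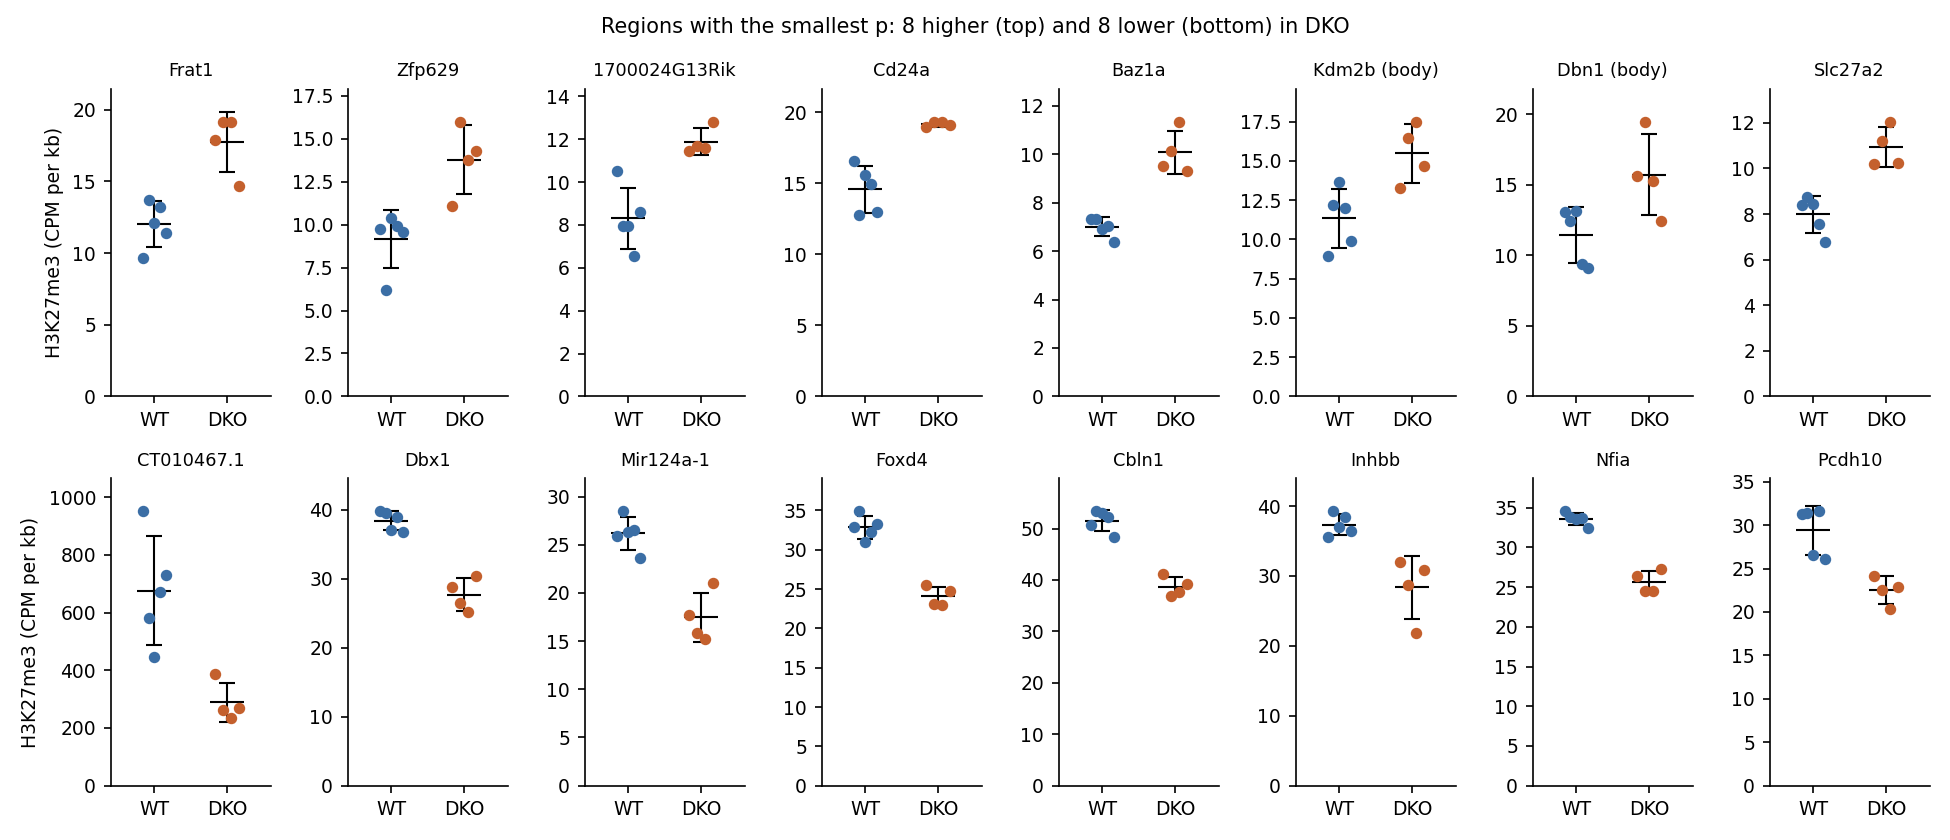
H3K27me3 (CPM per kb, vertical axes from 0) in each WT (5 points) and DKO library (4 points) at the 8 regions with the smallest p among those higher (upper rows) and lower in DKO (lower rows), with bars for the mean and SD. Of the 16, 14 show no overlap between genotypes. The regions in the bodies of Kdm2b and of Dbn1 and Prr7 overlap by a library. All 16 were chosen for a small p in these same libraries, so little overlap was set by the choice. Over all tested regions, every DKO library lay below every WT library in 3.4% and above in 3.36%.

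The genes of 25 lists were followed through the regions, in order of their roles. In all 281 regions lay at promoters of listed genes; 41 fell (14.6%) and 1 rose, with a median log2 change of -0.13 and a median level of 19.2 CPM per kb. Of the other 1169 regions 76 fell (6.50%) and 20 rose, with a median of -0.07 and a level of 16.8. In 14 of the 17 lists with 5 or more regions the median was below the -0.08 of all 1450, and under library totals each of the 17 medians was still below 0. Of the 41 that fell, 13 passed in all 9 leave-out fits: Inhbb, Bmp4, Zic5, Kcnk9, Dhh, Rax, Foxd4, Foxe3, Fat3, Fat4, Pcdh10, Dbx1 and Lyl1. The lists were chosen with earlier results of these data known. Over all 1450 regions 8.07% fell and 1.45% rose, so a few calls, or none, in a short list say little about that list.

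Transcription factors came first. Of 23 regions of homeobox genes outside the Hox clusters 5 fell, Dbx1, Barhl1, Rax and Nkx2-4 among them, and none rose (median log2 change -0.12). Rax, a factor of the developing eye, fell from 33.8 ± 1.69 to 26.3 ± 1.27 CPM per kb (log2 change -0.36; edgeR adjusted p = 1.70e-04). Hoxd1, the 1 Hox gene, stood at 20.9 ± 1.89 and 19.4 ± 1.39 and did not pass. Of 5 forkhead regions 2 fell, Foxd4 and Foxe3, a lens factor (29.99 ± 2.44 to 23.7 ± 1.78). Among 23 bHLH regions 3 fell, at Lyl1, Bhlhe23 and Neurog3, the endocrine pancreas factor. The list of zinc finger regulators, matched by gene symbol, had 2 of 7 lower. They lay at Tfap2c, not itself a zinc finger gene, and at a region over Zic5 and Zic2, genes of the neural tube. That region was low in level and fell from 15.5 ± 3.55 to 11.5 ± 1.54. Sox6 was the 1 of 5 Sox regions that fell. Without DKO replicate 3, the calls at Nkx2-4, Bhlhe23, Neurog3 and Tfap2c were lost (log2 changes of -0.26 to -0.20). Eomes, the T-box factor of mesendoderm, stood at 24.7 ± 1.80 and 21.2 ± 1.93 (adjusted p = 0.0751).

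Ligands and receptors of signalling pathways came next. Of 16 regions of the BMP and TGF-beta pathway 4 fell, with a list median of -0.18. They lay at the ligand genes Inhbb, Bmp2 and Bmp4 and at Grem1, a secreted BMP antagonist. Bmp2 lost its call without DKO replicate 1, 2, 3 or 4 or WT replicate 1, 2 or 5 (log2 changes of -0.30 to -0.22). Grem1 lost its call without DKO replicate 2 or 3 or WT replicate 2 or 5 (-0.29 to -0.22). Bmp4 fell from 19.6 ± 1.52 to 15.0 ± 1.49 CPM per kb (log2 change -0.39; adjusted p = 0.00138). Bmp6, the list's highest, stood at 37.4 ± 2.19 and 32.8 ± 2.20 and did not pass (adjusted p = 0.155). Among 5 Hedgehog regions the 2 ligand genes fell. Dhh measured 37.6, 39.2, 37.1, 39.7 and 36.0 in WT and 33.4, 29.7, 30.5 and 28.9 in DKO (log2 change -0.31; adjusted p = 0.00193). Ihh measured 44.6, 41.4, 40.9, 39.3 and 39.3 in WT and 37.7, 33.4, 32.7 and 34.02 in DKO (log2 change -0.25; adjusted p = 0.0127). At neither did the genotypes overlap, but Ihh lost its call without DKO replicate 2 or 3, with log2 changes of -0.30 to -0.22 over the leave-out fits. Of 33 regions of FGF and receptor tyrosine kinase genes 5 fell, at Pdgfb, Fgf3, Gfra1, Nrg1 and Fgf12, and each of these lost its call in at least 4 leave-out fits, DKO replicate 3 being among the libraries left out (log2 changes of -0.37 to -0.15 over those fits). None of 12 Wnt pathway regions passed, where 9.52% of all 1450 did. The highest of these 12, Sfrp5 and Frzb, both secreted Wnt antagonists, had log2 changes of -0.21 and -0.18.

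Genes of neuronal wiring and excitability were followed in 5 lists. Among 27 axon guidance regions 4 fell, at Ntng2, Efna5, Slit2 and Flrt2, with log2 changes of -0.31 to -0.29. Each of them lost its call without DKO replicate 3, with log2 changes of -0.38 to -0.22 over the leave-out fits. Of 30 potassium channel regions 1 fell, Kcnk9, a two-pore-domain channel, from 34.1 ± 1.19 to 26.4 ± 2.27 CPM per kb (log2 change -0.37; adjusted p = 1.28e-04). None of 14 regions of calcium, sodium and HCN channels passed, and Hcn2, a pacemaker channel, stood at 32.3 ± 2.03 and 28.2 ± 2.99. Of 31 neurotransmitter receptor regions 4 fell, at the adrenergic receptors Adra2a and Adra1d, the GABA-B subunit Gabbr2 and the serotonin receptor Htr1a. All 4 lost their calls without DKO replicate 3 (-0.42 to -0.18 over the leave-out fits). Cadherins and protocadherins were the list with calls in both directions: of 24 regions Pcdh10, Pcdh17, Fat3 and Fat4 fell and Fat1 rose. The Fat1 call was lost without DKO replicate 2 or 4 or WT replicate 2, 3, 4 or 5 (log2 changes of 0.25 to 0.32). With TMM factors set without chromosomes 6 and 11, 7 of the 24 fell and 0 rose.

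Matrix, Polycomb and pluripotency genes were few. Col12a1 and Col14a1 fell among 7 collagen regions, and neither passed without DKO replicate 2 or 3 (-0.34 to -0.25 over the leave-out fits). At the genes of PRC1 subunits, the region of Bmi1 and Commd3 stood at 22.6 ± 0.709 and 19.1 ± 0.914 (adjusted p = 0.0511) and that of Pcgf5 at 18.7 ± 0.842 and 16.5 ± 0.941 (adjusted p = 0.241). Esrrb, a pluripotency factor, fell from 28.2, 24.2, 24.2, 23.5 and 23.0 to 20.2, 21.01, 17.8 and 21.4 CPM per kb (log2 change -0.29; adjusted p = 0.0106), a call that was lost without DKO replicate 3 (-0.32 to -0.23 over the leave-out fits). Prdm14, needed for naive pluripotency and germ cells, stood at 16.8 ± 1.34 and 14.3 ± 0.230 and did not pass (adjusted p = 0.125). None of 6 regions of imprinted genes, 2 of them at Gnas, passed. The 3 regions of fibroblast genes, Prrx1 and Twist2 among them, did not pass either.

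**Figure D4:**
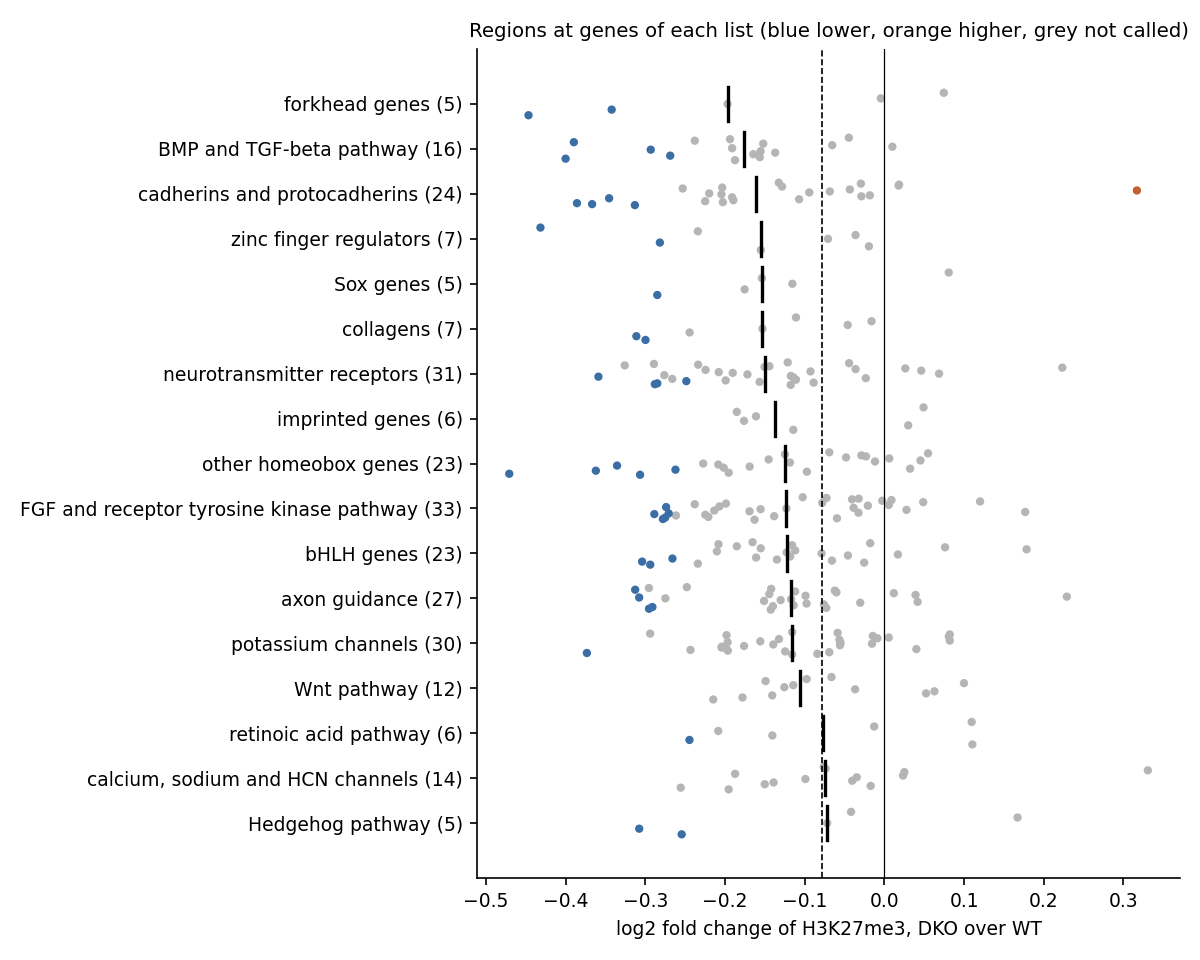
Log2 change of DKO over WT (horizontal axis) of each region at the genes of 17 lists with 5 or more regions; blue points fell, orange rose and grey did not pass, black ticks are list medians, and the dashed line is the median of all 1450 regions (-0.08). List medians lie between -0.20 and -0.07, and the single orange point is Fat1.

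The ribosomal region had the highest level and the largest change of the 1450. CT010467.1 and CT010467.2 (chr17:39842973-39848922) measured 951, 580, 445, 671 and 732 CPM per kb in WT and 388, 262, 235 and 271 in DKO, a log2 change of -1.23 ± 0.06 (SE; edgeR adjusted p = 2.90e-52). The groups did not overlap, but the WT libraries spread more than at any gene named above (SD 188). Total H3 there was 352 and 270 in WT and 278 and 168 in DKO, also lower in DKO (log2 change -0.50; adjusted p = 0.00157), and this was the 1 region of the 1450 where H3 passed (background 0.0211%). At an unadjusted p under 0.05 there were 67 of the 1450, beside 18 of the 411 regions of 10 kb or more and 419 of the 8223 tested of 1 to 5 kb. DESeq2 called 0 of the 1450. The change in the mark exceeded the change in H3 by a log2 difference of -0.76 ± 0.11 (edgeR adjusted p = 4.35e-06), again the 1 region that passed (background 0.00184%). At an unadjusted p under 0.05 there were 108 of the 1450, beside 99 of the 411 and 497 of the 9141, and DESeq2 called 0 of the 1450. The H3 call was lost without WT H3 replicate 1 or DKO H3 replicate 2, and the call beyond H3 without WT H3 replicate 2 or DKO H3 replicate 1, each time leaving 0 regions. Reads of near-identical copies cannot be assigned to one copy, so the value belongs to the sequence and not to this place.

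At the other regions named above, total H3 did not pass, and its error was large. Dbx1 measured 11.9 and 13.3 CPM per kb of H3 in WT and 6.27 and 10.6 in DKO, a log2 change of -0.52 (adjusted p = 0.662), so that its change beyond H3 was 0.04 ± 0.20. At Mir124a-1 H3 measured 9.64 and 10.5 in WT and 12.3 and 10.4 in DKO, and the change beyond H3 was -0.75 ± 0.24 (adjusted p = 0.507). At Frat1 it was 0.56 ± 0.24 and at Cd24a 0.48 ± 0.23, neither of which passed (adjusted p = 0.665 and 0.730). With 2 H3 libraries a genotype, a change of the mark and one of H3 could not be told apart at single regions. The lowest H3 of all was at the olfactory pseudogene Olfr1235-ps1, with 7.63 and 8.54 in WT and 3.89 and 6.61 in DKO. Its mark fell too, from 12.4 ± 1.16 to 8.49 ± 1.07 (edgeR adjusted p = 1.96e-04).

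A ratio of counts within a library needs no scaling between libraries. The log2 ratio of all counts in the 1450 regions to those in regions of 10 kb or more was 0.07, -0.02, -0.03, -0.01 and 0.01 in WT and 0.12, 0.16, 0.12 and 0.08 in DKO. Every DKO library lay above every WT library, though WT replicate 1 and DKO replicate 4 nearly met (0.0739 and 0.0763), with means of 0.01 ± 0.04 (SD) and 0.12 ± 0.03, a 1.08-fold difference (exact permutation test over all groupings of the libraries, two-sided p = 0.0159, the smallest possible). Against regions of 1 to 5 kb the ratio went the other way, from -0.32 ± 0.02 in WT to -0.44 ± 0.04 in DKO, a 0.924-fold difference (exact p = 0.0159). In each pair of classes the shorter one held relatively more counts in DKO than in WT. Within the 1450, the log2 ratio of regions with a promoter row to those without was 2.62, 2.62, 2.56, 2.68 and 2.64 in WT and 2.56, 2.55, 2.49 and 2.56 in DKO, a 0.943-fold difference (exact p = 0.0159). WT replicate 3 and DKO replicate 1 nearly met there (2.563 and 2.561). The Benjamini-Hochberg adjusted p over the 3 ratios was 0.0159 for each.

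**Figure D5:**
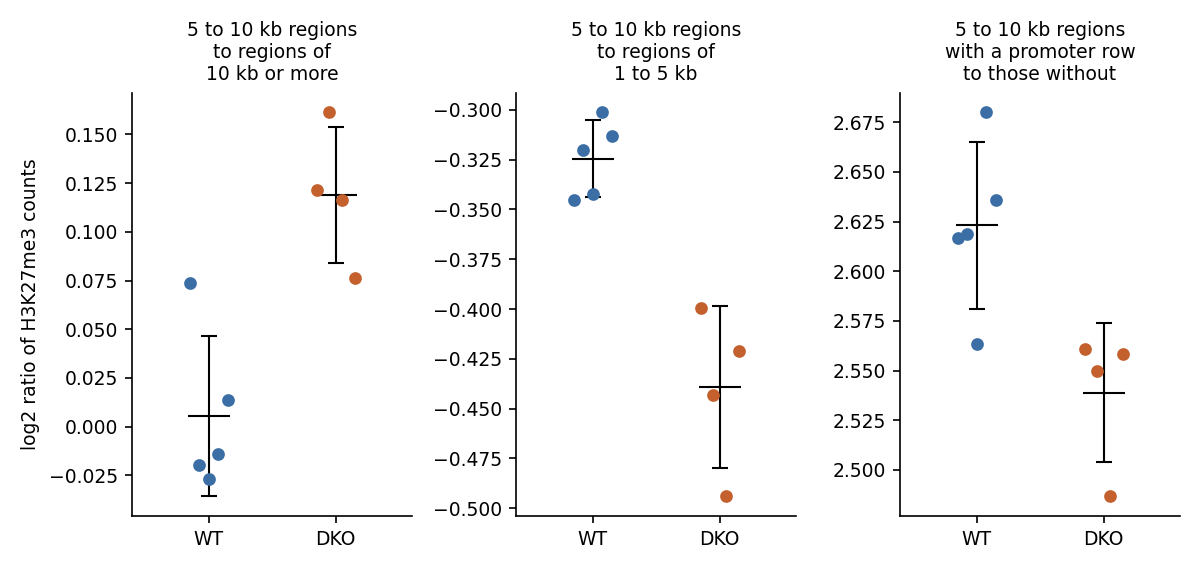
Log2 ratio of summed counts in each WT and DKO library (vertical axes): 5 to 10 kb regions over regions of 10 kb or more (left), over regions of 1 to 5 kb (middle), and regions with over without a promoter row (right), with mean and SD. All 4 DKO libraries lie above WT in the left panel and below WT in the other 2.

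Without the ribosomal region, in an alternative added after the data were seen, the 3 differences were 0.13, -0.10 and -0.07 on the log2 scale (exact p = 0.0159, 0.0159 and 0.0476). The ribosomal counts lie at promoter rows, so the last ratio moved the most.

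Promoter rows, of 3001 bp each, gave a second count of partly the same reads. Of 2512 rows at the regions 1367 had enough counts to be tested, and 8 rose and 8 fell (1.17% in all; backgrounds 0.438% higher, 0.19% lower and 0.628% together). Of these 16, 10 lay at regions that had passed in the same comparison, in the same direction. Frat1 rose from 50.1 ± 10.1 to 91.2 ± 17.8 CPM (log2 change 0.89; edgeR adjusted p = 5.32e-05), more than its region, Slc27a2 from 53.4 ± 12.1 to 78.6 ± 4.88, and Gm9908, at the Fat1 region, from 10.2 ± 5.48 to 23.1 ± 7.83. Kcnk9, Foxd4, Dbx1, the Mir124a-1 host, the Rax antisense transcript Raxos1 and both ribosomal rows fell. 

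At 6 rows the region itself had not passed. Dusp4, a phosphatase that restrains ERK signalling, rose from 98.5 ± 20.2 to 138 ± 21.9 CPM at its promoter (log2 change 0.51; adjusted p = 0.0222), while its region, at log2 0.18, did not pass. Pth1r, the parathyroid hormone receptor, rose from 62.5 ± 7.21 to 90.4 ± 14.2 at this row (log2 change 0.54), while its region of 9613 bp stood at -0.03. The others were Nrarp, a Notch feedback inhibitor, the nuclear receptor gene Rora and the transcript Gm43573, which rose, and a row of the craniofacial homeobox gene Alx1, which fell. The number of promoter rows that passed ranged from 4 (without DKO replicate 2) to 17 (without WT replicate 1). It was also under 11 without any of DKO replicates 1, 3 and 4 (10, 8 and 10) and WT replicates 2 to 5 (5, 9, 10 and 6).

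The regions beside the length limits give the values at the edge of the choice. Just inside 5000 bp, the Alk region (5000 bp) stood at 18.3 ± 1.30 in WT and 17.8 ± 2.01 in DKO and that of Rbm47 (5008 bp) at 10.0 ± 1.95 and 9.81 ± 2.13. Just outside, 2 regions of 4997 bp on chromosome 5 stood at 13.4 ± 1.02 and 14.2 ± 1.31 and, at Gm42778, 14.3 ± 1.80 and 14.2 ± 1.36. At the upper limit, the Car15 region (9995 bp) stood at 23.1 ± 1.74 and 21.3 ± 0.764 CPM per kb, the region at Wnt6 (10010 bp) just outside at 28.4 ± 1.84 and 25.7 ± 3.31, and another outside on chromosome 8 (10014 bp) at 11.6 ± 1.70 and 11.9 ± 0.995.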

How the data were processed

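H3K27me3 and total H3 were read from count tables of reads per region, one column a library, and from a table of reads per promoter row (3001 bp). The authors deposited these as raw counts. Per the file headers, the promoter counts came from featureCounts 2.0.3 without strand. Per the submitters' processing notes, Bowtie2, MACS2, bedtools, Subread and build mm10 were used, without roles.

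DKO was compared with WT by edgeR 4.0.16 (quasi-likelihood F test, TMM scaling, filterByExpr with a minimum count of 10 and total of 15) over all regions, with Benjamini-Hochberg adjustment and a threshold of 0.05. The change beyond H3 was the interaction of antibody and genotype. SE was the log2 change divided by the square root of F. Count ratios were tested by exact permutation of libraries. CPM per kb used the fit's effective library sizes, times 1 constant per antibody, so that totals run over all regions. H3K27me3 over H3 used library totals and a pseudocount of 0.1 CPM. DESeq2 1.42.0, other scalings, other filters, leaving out libraries, a library set term and a replicate block were alternatives. Scripts were tested on simulated data.

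Replicate numbers did not pair the libraries (correlations of deviations -0.01, -0.03, 0.01 and 0.07, against a limit of 0.1). A pairing by Old and New could not show here, since these words fall on different replicate numbers in WT and DKO. No 2 libraries held identical counts.

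The regions and gene lists were chosen with earlier results of these data known. Regions named were the 8 with the smallest p in each direction, the 8 highest and 3 lowest in level, the 3 highest and 2 lowest in H3, the 2 highest of each list and those beside the length limits. Other regions and promoter rows, and the called members of lists, were named after their values were seen. Of the microRNA and promoter sequences, those on chromosome 18 were left out, and microRNAs there were not counted.
Some list members are not reported by name here.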

Additional observations from a re-analysis of the deposited data

Results flagged for a closer look

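At Zfp629, WT replicate 2 measured 6.182 CPM per kb, while the other WT libraries lay between 9.55 and 10.4, so that 1 sample stood far from the others of its group. In the ratio of counts in regions with a promoter row to those without, DKO replicate 3 stood at 2.487 on the log2 scale, and the other DKO libraries lay between 2.550 and 2.561. Both came from a screen of 50 groups of libraries, of which 2 stood out in this way, and chance alone marks about 1 in 20. At CT010467.1 and CT010467.2 the change in H3K27me3 differed from the change in total H3 by -0.7593 on the log2 scale, tested as an interaction in edgeR (adjusted p = 4.35e-06). The cause of each was not tested.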

How the results depend on the processing

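The number of the 1450 regions that passed was 138. It was 83 when WT replicates 2 and 3, whose library names have stems of their own, were both dropped, 51 in the libraries with Old or New in their names, 9 in those without, and 50 to 162 when each library was left out in turn. With the replicate block it was 117, and with a library set term (Old, New or neither) it was 159, of which 132 fell and 27 rose. For total H3 and for the change beyond H3, DESeq2 gave 0 in place of 1, and leaving out libraries gave 0 to 1 for each. The 16 promoter rows became 8 without WT replicates 2 and 3, 4 in the libraries with Old or New, 6 in those without, 42 with a library set term, 7 without a filter, 4 with the replicate block and 4 to 17 over the leave-outs. The 3 count ratios were 0.133, -0.0850 and -0.0444 without the Old and New libraries (exact p = 0.2), 0.0967, -0.150 and -0.136 within them (exact p = 0.333) and 0.116, -0.112 and -0.0809 with the replicate block (exact p = 0.125); these designs cannot reach 0.05. The log2 ratio of H3K27me3 to H3 became 1.11 in WT and 1.02 in DKO with TMM over all 13 libraries. Of the 50 named changes followed through these alternatives, none changed direction, nor did a count ratio, but some medians near 0 did. Named regions outside these 50, such as those near 0 that did not pass, were not followed in this way. For regions named because they passed in these same libraries, a kept direction was largely set by that choice. With TMM set without chromosomes 6 and 11 the median of the 1 to 5 kb regions went from 0.03 to -0.01. With library totals the members' median change beyond H3 went from -0.07 to 0.01 and that of the 362 regions second lowest in level from -0.06 to 0.01. The cause of these differences was not tested. As few as 11 counts in an H3 library limit what H3 can show at 1 region.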
